A study of Danio rerio with 2 samples.

Results

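RNA polymerase II (Pol II) bound chromosome 2 of the 4 hpf zebrafish embryo at 857 peaks, which made up 4.23% of the 20243 peaks in the deposited list. The members were chosen by chromosome alone. A region within them, of 193.55 kb just around 15 Mb, was selected on its scores, and it held 43 of the 857 peaks (5.02%). The other 814 peaks are called the rest of chromosome 2, and 15861 peaks on the 23 other assembled chromosomes except chromosome 4 served as background. Chromatin immunoprecipitation (ChIP-seq) was made from pools of whole, untreated embryos of the wild-type Tubingen strain, collected 4 h after fertilization and cleared of yolk before fixation. Of the 2 samples, 1 was the immunoprecipitate with antibody 8WG16 against Pol II and 1 was its input. Both replicates of the immunoprecipitate had been pooled before peaks were called, so no value below has a replicate error. Cell types of the embryo cannot be told apart in such a list.

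Pol II is the enzyme that transcribes protein-coding genes and many small nuclear RNA genes. Antibody 8WG16 recognises the repeated tail of its largest subunit. Polymerase that waits near a start site can give a sharp peak, and polymerase that travels along a gene can give a broad domain. Which of these a given peak holds was not tested. In zebrafish the embryo's own genome is switched on in the hours before the stage sampled here, and until then development runs on maternal RNA. Each peak carried a score, read here as 10 times its highest −log10 q. The score measures how significant a peak is against the input and local background, and it is not a fold enrichment. Positions are those of build GRCz10, named Zv10 by the study, and are counted from 1. No genome of that build was used here, so peaks were named by position, no gene was assigned and no sequence was printed.

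The region of extreme scores (chr2:14991401-15184950) was a stretch in which Pol II peaks lay a median of 2380 bp apart. The median space was also 2380 bp on the rest of chromosome 2 and 2530 bp on the background chromosomes. These medians do not compare like with like, since peaks of the region lie 10 kb or less apart by definition. Elsewhere the spaces include long stretches without a peak. The 43 peaks of the region covered 90.72 kb, or 46.9% of it, beside 2.78% covered on the rest of chromosome 2. Scores ran from 38 to 312162 with a median of 3167 (quartiles 1032.5 and 12458.5). The median was 43.4 times that of the rest of chromosome 2, which was 73. Since the scores chose the region, these values are a description and carry no test. The highest score in the region was 2.40 times that of the highest peak anywhere else in the list (129970, on chromosome 4) and 26.6 times that of the highest peak on the rest of chromosome 2 (11740). Of the 20243 peaks in the list, 82 scored above 10000. They included 11 of the 43 peaks here and 2 of the 814 on the rest of chromosome 2.

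The region began abruptly and faded at its far end. On its left, 562.38 kb without any peak separated it from the nearest peak (14424821 to 14429020), which scored 4401. Its own first peak (14991401 to 14993060) scored 245633. On its right, the next peak (15195051 to 15195590) followed after 10.10 kb and scored 353. In the 500 kb beyond the region 10 peaks were called, with a median score of 151 and a highest score of 402. The last 4 peaks inside the region had scores of the same order, so its right border is set by the distance between peaks and not by a step in score.

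Score fell along the region. Across the 43 peaks, score and summit position had a Spearman's rho of -0.758, given as a description because peaks of 1 locus share their reads, their input and their local background. In successive windows of 50 kb, assigned by summit, the median score was 69585.5 for 10 peaks, 6264 for 11 peaks and 1137 for 11 peaks. In the last 43.55 kb it was 1070 for 11 peaks. The peaks also became narrower, from a median width of 2210 bp in the first window to 1070 bp in the last, and the share of bases covered went from 54.2% to 37.8%. Without the 7 highest peaks rho was -0.623.

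**Figure D1:**
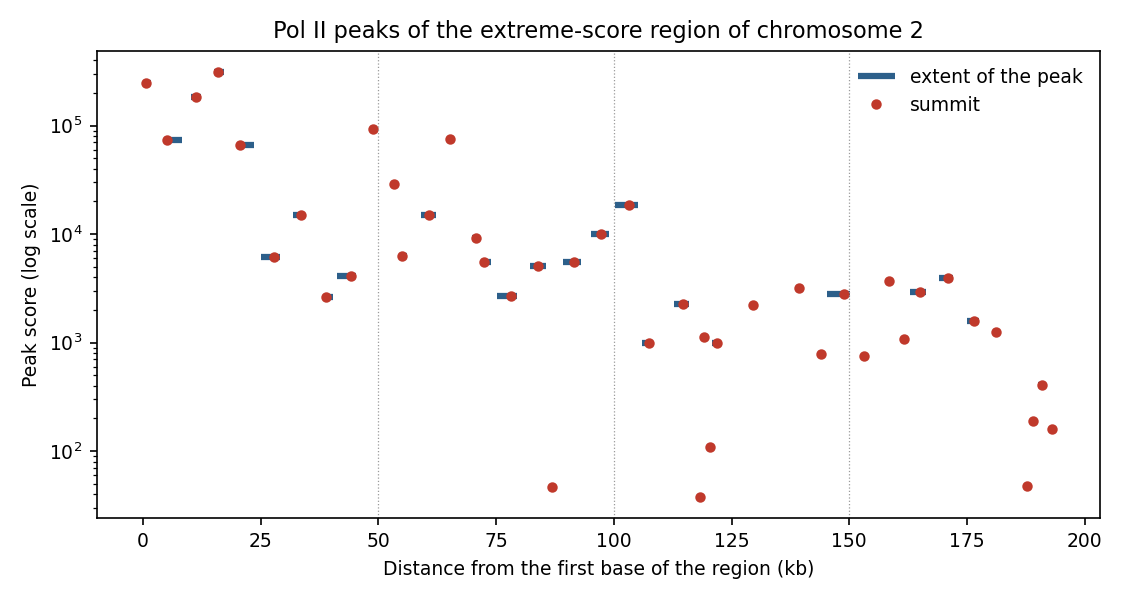
Score of each of the 43 Pol II peaks (y axis, log scale, no unit) against distance from the first base of the region (x axis, kb). Blue bars show the extent of each peak, red points its summit and dotted lines the borders of the 50-kb windows. Scores reach 312162 in the first window and none passes 3909 in the last.

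The first 5 peaks formed the strongest group. They scored 245633, 73165, 183221, 312162 and 66006 in order along the chromosome. The highest was therefore the fourth (15006581 to 15008640), whose summit lay 16.03 kb into the region, and the third (15001641 to 15003840) lay between it and the weaker second peak. Their summits were 4620, 6020, 4800 and 4630 bp apart.

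A drop followed within the same window. The next 4 peaks scored 6180, 14990, 2619 and 4113. The lowest of them (15029841 to 15031870) was 119-fold below the highest peak by score, although only 22.78 kb lay between their summits. Score then returned to 93023 in a peak of 1540 bp (15039651 to 15041190), the fourth highest of the region.

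The second window alternated between strong and moderate peaks. It opened with a peak of 1040 bp that scored 28902 (15044201 to 15045240), followed by scores of 6264 and 14927. The fifth highest peak of the region came next, 1400 bp wide with a score of 74666 (15056151 to 15057550). None of the 7 peaks after it in that window passed 9990. Their scores were 9146, 5511, 2706, 5086, 47, 5555 and 9990. The value of 47 belonged to a peak of 320 bp (15078111 to 15078430), and its neighbours were 2 of the moderate peaks, with 5086 and 5555.

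The last 93.55 kb held 1 further peak above 10000. This was the widest peak of the region (15091601 to 15096510, 4910 bp), with a score of 18714. The other 10 peaks of the third window scored 995, 2274, 38, 1137, 109, 990, 2241, 3167, 787 and 2787. Spaces between peaks were also longest there, at 7060 bp and 8710 bp on either side of a peak of 730 bp (15120651 to 15121380). In the last window the scores were 759, 3671, 1070, 2927, 3909, 1567, 1250, 48, 189, 404 and 161. Except for the first, no peak of that window scored below 1000 until the last 4, which lay within 5.89 kb.

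Height and breadth did not go together at the top of the region. No peak there reached 5 kb, and the 7 highest were 1400 to 3730 bp wide. Over the 43 peaks, score and width had a rho of 0.583, compared with 0.687 over the rest of chromosome 2 and 0.684 over the other chromosomes, and part of this relation is built in because the score and the bounds of a peak come from the same q values. Among peaks 1 to 5 kb wide, the 34 in the region had a median score of 5298.5 (range 404 to 312162). The 292 of the same widths on the rest of chromosome 2 had a median of 117.5 (range 37 to 4722), and the 5648 on the other chromosomes had a median of 128 and a highest score of 21809. The narrowest peaks were weak in the region as well, since the 3 peaks of 320 to 340 bp scored 47, 38 and 48.

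**Figure D2:**
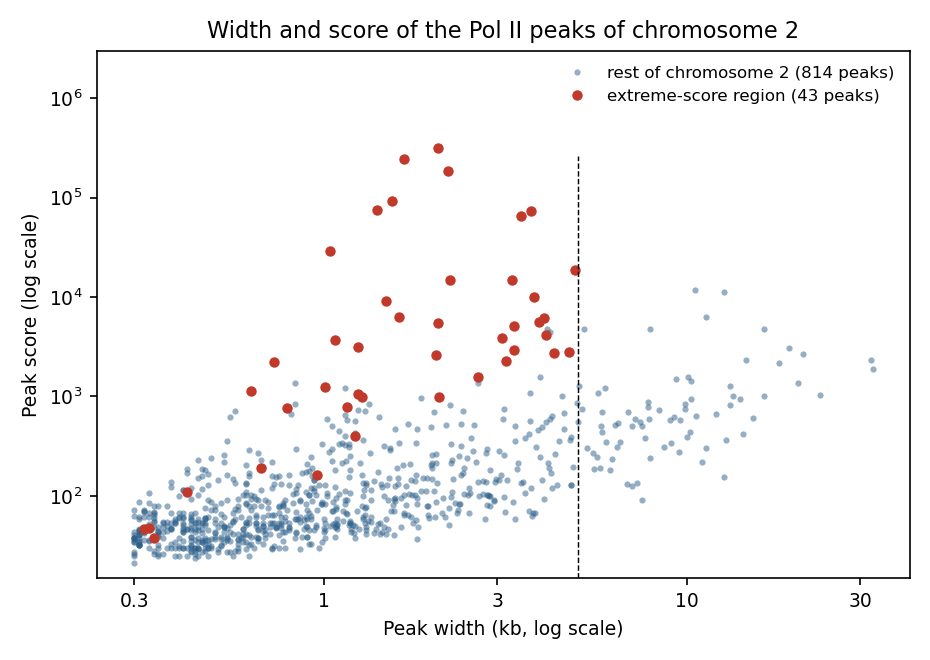
Score (y axis, log scale, no unit) against width (x axis, kb, log scale) for the 857 Pol II peaks of chromosome 2, with the dashed line at 5 kb. The region's peaks (red) reach 312162 at 2.06 kb, while the highest peak of the rest (blue) scores 11740 at 10.51 kb.

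Most of the widest peaks in the region had their summits right of the middle. The 29 peaks under 3 kb had their summits a median of 555 bp from the left edge (range 100 to 1655 bp), and in 14 of them it lay right of the middle. In 10 of the 43 peaks the summit lay 535 to 635 bp from the left edge, and these included the first peak and the 2 highest of the second window. That range was set around values seen in the region and holds the median of 555 bp. Its share among other peaks was not computed, so no recurring distance is read from it. The 14 peaks of 3 kb or more had a median of 2135 bp from the left edge (range 575 to 3555 bp), and in 11 of them the summit lay right of the middle. Distances in bp grow with width, and as a share of the width the medians were 0.481 and 0.609. The exceptions were the second peak (14995981 to 14999710) and the fifth (15011481 to 15014980), with summits 625 and 575 bp from the left edge and scores of 73165 and 66006, and a peak at 15073651 to 15077000 with its summit 1660 bp from the left edge, just short of the middle. In both strong exceptions most of the peak lay right of the summit, 3104 bp of it in the one and 2924 bp in the other. The cut at 3 kb was used for the region only, and no share at that cut was computed for other peaks. Among peaks of 5 kb or more, the summit lay right of the middle in 683 of 1361 in the background. On the rest of chromosome 2 it did so in 37 of 76. Whether the region differs in this was not tested. The strand of transcription cannot be read from this assay.

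**Figure D3:**
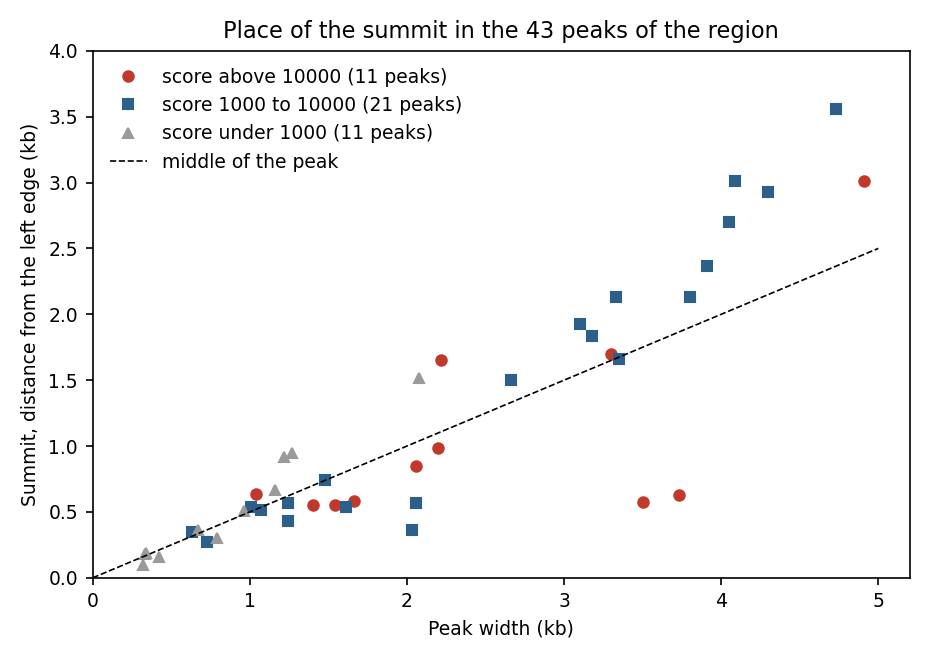
Distance of the summit from the left edge (y axis, kb) against peak width (x axis, kb) for the 43 peaks of the region, by score class. Points on the dashed line have the summit in the middle. Of the 14 peaks of 3 kb or more, 11 lie above the line and 2 with scores above 10000 lie far below it.

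Summits in the region were spaced a median of 4732.5 bp apart, with a range from 765 to 9730 bp over 42 steps. Of these steps, 4 measured 4620 or 4630 bp, and they led from the first to the second peak, from the fourth to the fifth, from the tenth to the eleventh and from the thirteenth to the fourteenth. Another 7 steps measured 5720 to 5890 bp. Summits were placed to 5 bp in the list. Recurring steps were noticed in these values and were not tested. Reads that fit several places equally well had been placed at 1 of them at random, so a peak inside repeated sequence can hold reads of another copy, and what part repeats have in the height or spacing of these peaks was not tested.

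The region differed from other dense Pol II clusters in its scores more than in its number of peaks. Clusters of peaks no more than 10 kb apart that held 20 or more peaks numbered 37 in the list. The other 36 held up to 40 peaks, their median scores ran from 43 to 1181 with a median of 64, and their highest scores ran from 132 to 26260. Of the region's 43 peaks, 34 (79.1%) were among the top 1000 of the list by score, and no other cluster held more than 28. That number was reached by a cluster of 31 peaks on chromosome 15, which therefore had a larger share of top peaks than the region. Beside this, 4.89% of peaks on the background chromosomes were among the top 1000. That share is printed for scale only, since the scores chose the region.

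Outside the region, chromosome 2 carried Pol II peaks of much the same score and width as other chromosomes. The 814 peaks had a median score of 73 (quartiles 46 and 168.5) and a median width of 890 bp (quartiles 492.5 and 1917.5 bp). The background chromosomes had a median score of 76 (46 and 177) and a median width of 860 bp (490 and 1810 bp). Peak density was 13.8 per Mb against 13.2, a ratio of 1.05 with an exact binomial 95% interval of 0.976 to 1.13, which includes 1. Intervals here cover counting error only. Among 24 chromosomes, the rest of chromosome 2 ranked 9 from the highest in density, 14 in median score and 6 in median width. The region alone moved the whole chromosome to rank 5, 8 and 4.

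No difference in the share of broad domains between the rest of chromosome 2 and the background was detected. Peaks of 5 kb or more numbered 76, or 9.34% (Clopper-Pearson 95% interval 7.43 to 11.5), beside a background of 8.58%. The odds ratio was 1.10 with a 95% interval of 0.849 to 1.40, and the difference was not significant (two-sided Fisher's exact test, p = 0.442, the same after Benjamini-Hochberg adjustment over 3 comparisons). Another peak lay within 10 kb of 661 peaks, or 81.2% (78.3 to 83.8), beside a background of 82.5%. The odds ratio was 0.914 (0.761 to 1.10, Fisher's exact p = 0.321, adjusted p = 0.442). Both shares depend in part on removing the region, because all 43 of its peaks lay in 1 cluster and none reached 5 kb. With the region kept the shares were 8.87% broad and 82.1% with a near neighbour. Peaks in a cluster are not independent, and a near neighbour is mutual. The intervals are therefore too narrow, and the p values cannot be taken at face value. With 1 peak per cluster the share of broad peaks was 21.2% against 18.8%, again not significant (Fisher's exact p = 0.287). Counted by cluster, 48.5% held 2 or more peaks against 50.5% in the background (Fisher's exact p = 0.513).

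**Figure D4:**
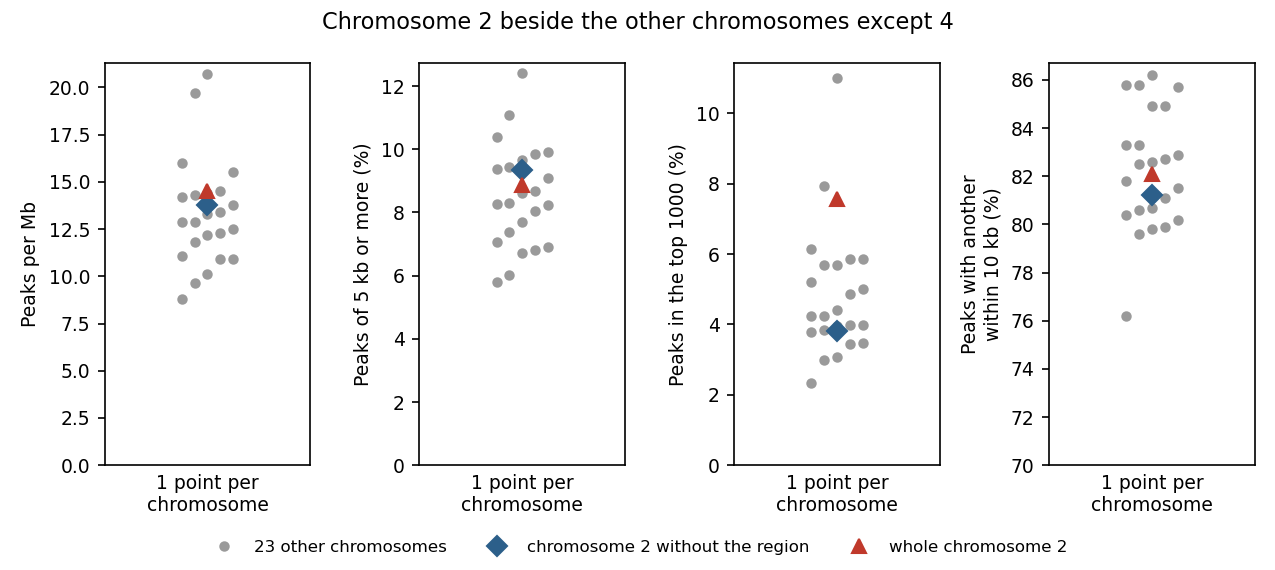
Peaks per Mb and shares of peaks (y axes, in percent; the last axis starts at 70) with 1 point for each chromosome. Chromosome 2 is drawn without (diamond) and with (triangle) the region, beside 23 other chromosomes. Only the share of top peaks moves far when the region is added, from 3.81% to 7.58%.

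The high rank of chromosome 2 in strong peaks came from the region. With the region, 65 of the 857 peaks (7.58%) were among the top 1000, and the chromosome ranked 3 of 24. Without it 31 of 814 (3.81%, 95% interval 2.60 to 5.36) were, beside the background of 4.89%, and the rank was 18. Since the region was removed for its scores and no such region was removed from other chromosomes, the lower value is fixed in part by the choice and was not tested. On chromosome 2 the weakest of the 31 scored 1000 (33343091 to 33347610), and the strongest peak just outside scored 960 (14419851 to 14421700). At the limit for broad peaks, the narrowest included was 5020 bp wide (48396801 to 48401820) and the widest left out 4990 bp (38239091 to 38244080).

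Strong peaks were mostly broad domains, on the rest of chromosome 2 and on the background chromosomes. Of the 31, 23 were 5 kb or wider, compared with 456 of 776 in the background. The median width of the top peaks was 10240 bp against 6510 bp. Among broad peaks, 30.3% were in the top 1000 beside 33.5% in the background. Among narrower peaks, 8 of 738 (1.08%, 95% interval 0.469 to 2.12) were, beside 2.21%. This split was made after the data were seen and, for the reason above, has no test. With 1 narrow peak per cluster the shares were 2.85% and 3.92%. The 8 narrow top peaks scored 1000 to 4722 and were 830 to 4520 bp wide. The first lay 11.3 kb from the start of the chromosome (11301 to 12440, score 1215), and 2 of them stood alone, with no other peak within 10 kb.

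The 10 highest peaks of the rest of chromosome 2 lay between 8851061 and 58669490, and 8 of them were broad. None of them lay between 36962480 and 56935501. The highest, with a score of 11740, was a domain of 10510 bp near the end of the chromosome (58654371 to 58664880). Its summit lay 704 bp from its right edge. A peak of 4130 bp (58665361 to 58669490, score 4722) followed after 480 bp, with its summit 345 bp from its left edge, so that the summits of this pair faced each other across 1530 bp.

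The next highest was a domain of 12690 bp with a score of 11368 (32123561 to 32136250). It had its summit 3174 bp from the right edge and 4 further peaks within 10 kb, of which the nearest scored 80 and 240. A lone domain of 11260 bp scored 6360 (26842691 to 26853950), and a second lone peak of 5220 bp scored 4783 (36957261 to 36962480). The others were at 32514261 to 32530560 (score 4755), 56935501 to 56943410 (4746), 14424821 to 14429020 (4401), 21947311 to 21966370 (3074) and 8851061 to 8871970 (2655). The peak at 56935501 had its summit 395 bp from its left edge and was followed after 840 bp by a domain of 17890 bp with a score of 2188. High scores therefore occurred in lone domains, beside weak peaks and beside other strong peaks.

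The 5 widest domains outside the region scored 1033 to 2655, all within the top 1000 of the list, and 1 of them was also among the 10 highest. Peaks of 32540 bp (37119471 to 37152010) and 32120 bp (44892721 to 44924840) scored 1911 and 2322. Their summits lay close to an edge, 1364 bp from the right edge in the first and 2215 bp from the left edge in the second. A domain of 23320 bp (27835171 to 27858490, score 1033) had its summit 1205 bp from its left edge. In the remaining 2, of 20910 bp (8851061 to 8871970, score 2655) and 20300 bp (26632481 to 26652780, score 1353), the summit lay 6634 and 5164 bp from the right edge.

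A summit near an edge was common among broad peaks generally. Of the 76, 33 (43.4%) had it within 1 kb of an edge, compared with 42.4% of 1361 background peaks. Left and right were balanced, with the summit left of the middle in 39 and right of it in 37. Over all 814 peaks the summit lay at a median of 0.490 of the width from the left edge, against 0.494 in the background. Among peaks of 2 kb or more it was 0.446 for 193 peaks, against 0.513 for 3595 in the background, and this difference was not tested.

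Weak peaks made up the dense clusters of chromosome 2, in contrast to the region. Joining peaks no more than 10 kb apart gave 297 clusters on the rest of the chromosome, of which 153 were lone peaks and 47 held 5 or more peaks. This was 79.9 such clusters per 100 Mb, compared with 79.3 on the background chromosomes. The median score was 99 for lone peaks, 94 in clusters of 2 to 4, 66 in clusters of 5 to 9 and 57 in clusters of 10 or more. The background had 93, 87, 68 and 64 in the same classes. The 205 peaks in clusters of 10 or more included 3 top peaks and the 153 lone peaks included 8. In the background 166 of 3700 peaks in such clusters and 173 of 2769 lone peaks were top peaks, and the difference was not tested. It depends in part on removing the region, which is itself a cluster of 10 or more peaks. No cluster was removed from the background for its scores. With the region kept, 37 of 248 peaks in that class were top peaks and their median score was 65.5.

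The cluster with most peaks after the region (22105391 to 22189910) held 24 peaks, and it also had the greatest covered length, 51.87 kb. Its highest score was 1490 and its median was 69. Clusters of 19 peaks (52225211 to 52273770), 16 peaks (21159071 to 21209050), 16 peaks (31823251 to 31875900) and 15 peaks (27835171 to 27890680) had median scores of 58, 35, 56 and 53. Covered length followed a different order, because single domains carried much of it. A cluster of 8 peaks (44891361 to 44939710) covered 38.39 kb, the one at 27835171 covered 36.91 kb, 12 peaks (17129881 to 17174590) covered 33.84 kb and 2 peaks (37115401 to 37152010) covered 33.82 kb. In the last of these, 1 domain accounted for 32540 bp.

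Density along the rest of chromosome 2 was uneven. In bins of 5 Mb it was lowest from 45 to 50 Mb, with 5.80 peaks per Mb (exact Poisson 95% interval 3.88 to 8.33), and from 5 to 10 Mb, with 7.60 (5.38 to 10.4). It was highest from 20 to 25 Mb, with 20.4 (16.6 to 24.8), from 35 to 40 Mb, with 19.4 (15.7 to 23.7), and in the last bin, of 4.05 Mb, with 78 peaks or 19.3. The plotted intervals of these sparse and dense bins did not overlap, but they count peaks of a cluster as independent and are too narrow. The bins were also picked as the extremes, so the unevenness is a description and was not tested. Their densities all lay within the range of 231 full bins on the background chromosomes, 1.60 to 60.6 with a median of 12.0. The bins on either side of 15 Mb, where the region lies, had 12.2 and 9.0 peaks per Mb without it.

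Counts of broad and top peaks per bin were small, and differences between bins were not tested. Over the rest of chromosome 2, 9.34% of peaks were broad and 3.81% were top peaks. The bin from 20 to 25 Mb held 14 broad peaks and 4 top peaks among 102. The last 4.05 Mb held 10 and 6 among 78, the most top peaks of any bin. From 50 to 55 Mb there were 62 peaks with 2 broad ones and no top peak, and the highest score was 639. Median scores were lowest in the bins from 25 to 30 and from 50 to 55 Mb, at 61, and highest from 10 to 15 Mb, at 108. The 3 longest stretches without a peak were 1.48 Mb (46342331 to 47824500), 1.40 Mb (38392381 to 39793200) and 1.32 Mb (28618751 to 29938770). They were bordered by weak peaks, with scores between 43 and 193.

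**Figure D5:**
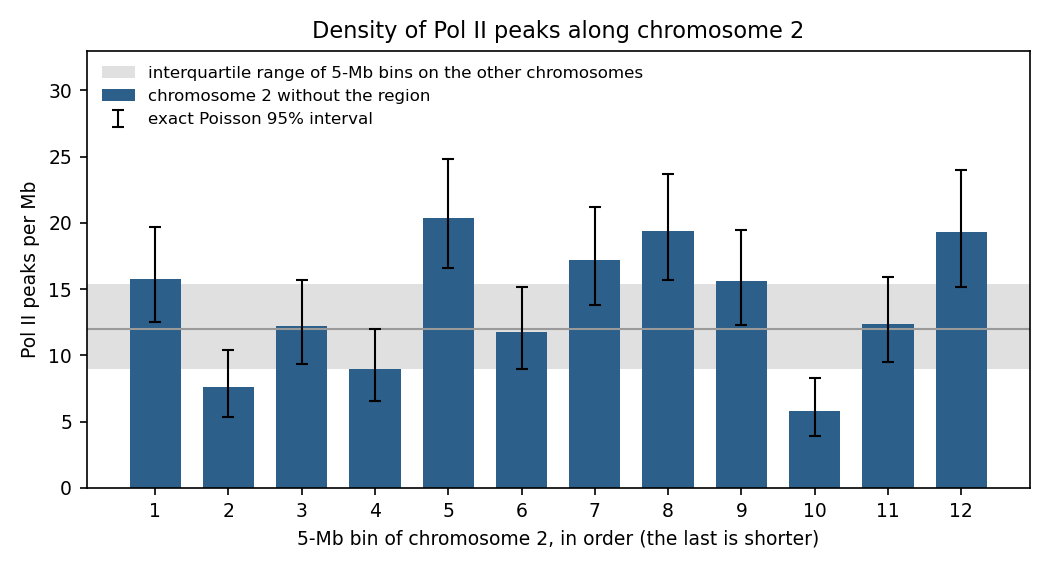
Pol II peaks per Mb (y axis) in the 12 successive 5-Mb bins of chromosome 2 without the region (x axis), with exact Poisson 95% intervals. The grey band and line give the interquartile range (9.0 to 15.4) and median (12.0) of 231 bins on the background chromosomes. Bins 5, 8 and 12 stand highest and bin 10 lowest.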

How the data were processed

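Embryo chromatin was immunoprecipitated for Pol II, with 1 input. According to the study's methods, single-end reads were aligned to Zv10 (GRCz10) with Novoalign 2.8, with reads of several equal positions placed at random. SAMtools joined the technical replicates, and a wrapper around MACS2 called peaks once on 2 biological replicates with the input. The peak caller was run with its nodup option, whose effect on duplicate reads the methods do not spell out, and the part of duplicates in the scores was not tested. The authors deposited for each peak a whole-number score, 20 at the lowest, and a summit. The fields for fold, p and q hold 0 and were not used. Bounds were multiples of 10 bp. Depth is not given in the list.

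Peaks were read with pandas 2.3.3 and joined into clusters at spaces of 10 kb or less. The end of the last peak stood for chromosome length. SciPy 1.17.1 gave exact binomial and Poisson intervals and two-sided Fisher's exact tests, with Benjamini-Hochberg adjustment over 3 shares (broad, top, near). The test planned for top peaks is not reported, because scores chose the region. The share test and the density ratio were tried on simulated counts drawn independently. Those counts lack the clustering of real peaks, so the trial does not cover it. Members and lists were chosen with earlier results of these data known. Named outside the region were the 10 highest and 5 widest peaks, the 5 clusters with most peaks and with most covered bases, and the 3 longest stretches without a peak. Narrow top peaks and values at thresholds were added later.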

Additional observations from a re-analysis of the deposited data

How the results depend on the processing

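Ratios below compare the rest of chromosome 2 with the background. Broad peaks (1.10 as reported) kept their direction and stayed short of significance under all 5 alternatives. The density ratio (1.05) changed side with chromosome 4 in the background (0.938), which adds a chromosome dense in peaks. With the region kept it was 1.10 (1.03 to 1.18). That interval counts the 43 peaks of 1 cluster, singled out on these data, as independent, so no excess is read from it. The odds ratio for near neighbours (0.914) was 1.07 at 5 kb, both within error of 1. That for top peaks (0.770) was 1.03 with the top 2000, a description only, because the region was removed for its scores. The cause of either change was not tested. With the region kept, the odds ratio for top peaks was 1.60 and that for narrow top peaks (0.486, chosen after the data were seen) was 2.52. Of the 65 top peaks then counted, 34 lay in the region, which is 1 cluster singled out on its scores. No excess is read from either value. Leaving chromosome 15 out of the background, also chosen after the data were seen, changed no direction. The odds ratio for narrow top peaks then moved from 0.486 (0.207 to 0.974) to 0.577 (0.246 to 1.16). Neither interval is read as a test, because the region was removed for its scores. The gradient in the region had a rho of -0.623 without the 7 highest peaks. Joined at 5 kb, the piece around the highest peak held 28 peaks in place of 43. When only the best 25% of peaks by score were joined, outside the region 0 clusters reached 5 peaks in place of 47. Only 196 peaks in place of 814 were left to join there, which lowers the count but does not fix it at 0. No paired analysis was possible because a single pooled list holds both replicates, and none could be left out. Unknown depth and the absence of replicate values limit every comparison.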
